A study of Mus musculus with 18 samples.

Results

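The genes described here are the 7 mouse genes Il4, Il5, Il13, Tslp, Il4ra, Il13ra1 and Stat6, which encode type 2 cytokines, an upstream alarm cytokine, receptor chains and a transcription factor of one signalling route. They were chosen by symbol from 32285 genes, by a rule with no threshold, and with earlier results of these data known. All 7 were found in each of the 10 messenger RNA libraries, with at least 1 unique molecular identifier (UMI, a counted transcript) in the kept cells of every library. The study measured single cells of mouse back skin by 10x 3′ RNA sequencing after an expander was placed under the skin. Every mouse, control or expanded, had an incision on the back near the tail and a path opened under the skin to the neck. Expanded (EXP) mice then received a hydrogel expander near the neck, held with stitches, and control (CTRL) mice received none. Each arm had 2 libraries at day 1, 2 at day 2 and 1 at day 4, so 5 per arm. The second library of a day came from another sequencing round. Live, DAPI-negative cells were sorted, and the mice of 1 arm and round were pooled in 1 reaction, so within a round the arm and the reaction cannot be told apart.

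IL-4 and IL-13 are cytokines of type 2 immunity, the arm of the immune system that acts at barriers in allergy, parasite infection and repair. IL-4 signals through the IL-4 receptor alpha chain (Il4ra) paired either with the common gamma chain (Il2rg), mostly on blood-derived cells, or with the IL-13 receptor alpha 1 chain (Il13ra1), and IL-13 uses the latter pair. Both receptors activate STAT6, which enters the nucleus and switches on target genes. IL-5 promotes the survival of eosinophils. TSLP is released mainly by epithelial and stromal cells and acts through the receptor chains Crlf2 and Il7r on dendritic cells, innate lymphocytes and other cells. In skin, group 2 innate lymphoid cells, mast cells, basophils and some T cells are known sources of IL-4, IL-5 or IL-13.

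The 3 cytokine genes lie in 1 cluster on chromosome 11 (GRCm38, which is mm10; GENCODE M21 gene models). Il4 lies at chr11:53602982-53618669 on the minus strand, Il13 at chr11:53631324-53634702 on the minus strand and Il5 at chr11:53720794-53725106 on the plus strand. Il4 and Il13 are 12654 bases apart, Il13 and Il5 are 86091 bases apart, and 1 other protein-coding gene, Rad50, lies between Il13 and Il5. Il4ra lies at chr7:125552120-125579474, Il13ra1 at chrX:36112110-36171259 and Stat6 at chr10:127642986-127660957, all on the plus strand. A gene annotated on the opposite strand overlaps Il5 over 666 bases (Gm12214), Il4ra over 1342 bases (Gm44876), Stat6 over 40 bases (Nab2) and Tslp over its whole 4415 bases (4930455D15Rik). Whether the counting used strand is not given in the sources used here, so reads of these overlaps may be shared.

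The 250 bases before the start of the 3 cytokine genes are shown because the genes share a locus but had different cell sources in these data. They are RefSeq promoters of GRCm38.p6, each 5′ to 3′ on the gene's strand, from chr11:53618666-53618915 (Il4, minus strand, the second of 2 listed starts), chr11:53634703-53634952 (Il13, minus strand) and chr11:53720544-53720793 (Il5, plus strand). Capitals mark matches, on either strand, to the STAT6 motif (TTC and GAA with any 4 bases between), the GATA motif AGATAA and the NFAT motif TGGAAA.
Il4: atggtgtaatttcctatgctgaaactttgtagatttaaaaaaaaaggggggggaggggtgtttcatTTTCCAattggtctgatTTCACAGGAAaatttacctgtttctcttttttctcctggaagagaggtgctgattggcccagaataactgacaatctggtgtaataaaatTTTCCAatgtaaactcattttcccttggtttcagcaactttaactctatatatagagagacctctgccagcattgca
Il13: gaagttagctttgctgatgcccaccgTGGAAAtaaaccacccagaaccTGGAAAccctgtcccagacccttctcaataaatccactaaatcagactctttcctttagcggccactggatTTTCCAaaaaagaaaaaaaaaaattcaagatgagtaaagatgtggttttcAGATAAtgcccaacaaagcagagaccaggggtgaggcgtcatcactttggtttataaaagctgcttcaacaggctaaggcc
Il5: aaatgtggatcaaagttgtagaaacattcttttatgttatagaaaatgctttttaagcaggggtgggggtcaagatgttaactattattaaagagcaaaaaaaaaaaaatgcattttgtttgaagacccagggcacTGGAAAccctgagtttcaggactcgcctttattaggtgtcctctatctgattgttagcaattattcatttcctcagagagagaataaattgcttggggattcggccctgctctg
The Il4 window held 1 STAT6 match, at position -167 from the start, and 2 NFAT matches, at -184 and -77. The Il13 window held 1 GATA match at -81 and 3 NFAT matches at -224, -202 and -131. The Il5 window held 1 NFAT match at -114. None of the matches overlapped another. Of 32851 promoter windows of this length, 5.85% held the STAT6 motif, 9.99% the GATA motif and 18.6% the NFAT motif. The windows of Il4ra, Il13ra1, Stat6 and the first listed Il4 start, whose sequence is not shown, held none of the 3.

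After filtering, 45397 cells were kept, 28403 CTRL and 16994 EXP, with 1853 to 7945 cells and a median of 6319 to 12682.5 UMIs per cell in a library. The deposited libraries held 17726739 to 75470722 gene UMIs. Cells fell into 45 clusters, of which 35 were given 1 of 22 class names from marker lists that hold none of the 7 genes. The 10 unnamed clusters held 4150 cells, 6.15% to 14.5% of a library. The 7 genes were left out of the clustering. Any pair of libraries shared 1 to 23 cell barcodes, at most 0.377% of the smaller library. Each class name below stands for cells with that class's markers, so "basophil" means basophil-like.

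The 7 genes had very different totals. Il4 had 607 UMIs in 190 cells, Il5 had 1143 UMIs in 253 cells, Il13 had 1934 UMIs in 643 cells and Tslp had 2817 UMIs in 1778 cells. The receptor and signalling genes were broad: Il4ra was found in 16173 cells (35.6%), Il13ra1 in 15132 cells (33.3%) and Stat6 in 10925 cells (24.1%). Levels below are in CPM, the gene's UMIs per 1000000 UMIs of the class in a library. Means are over libraries with at least 20 cells of the class, and errors are SD over those libraries. No test between classes was made, since classes were clustered from the same cells.

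**Figure D1:**
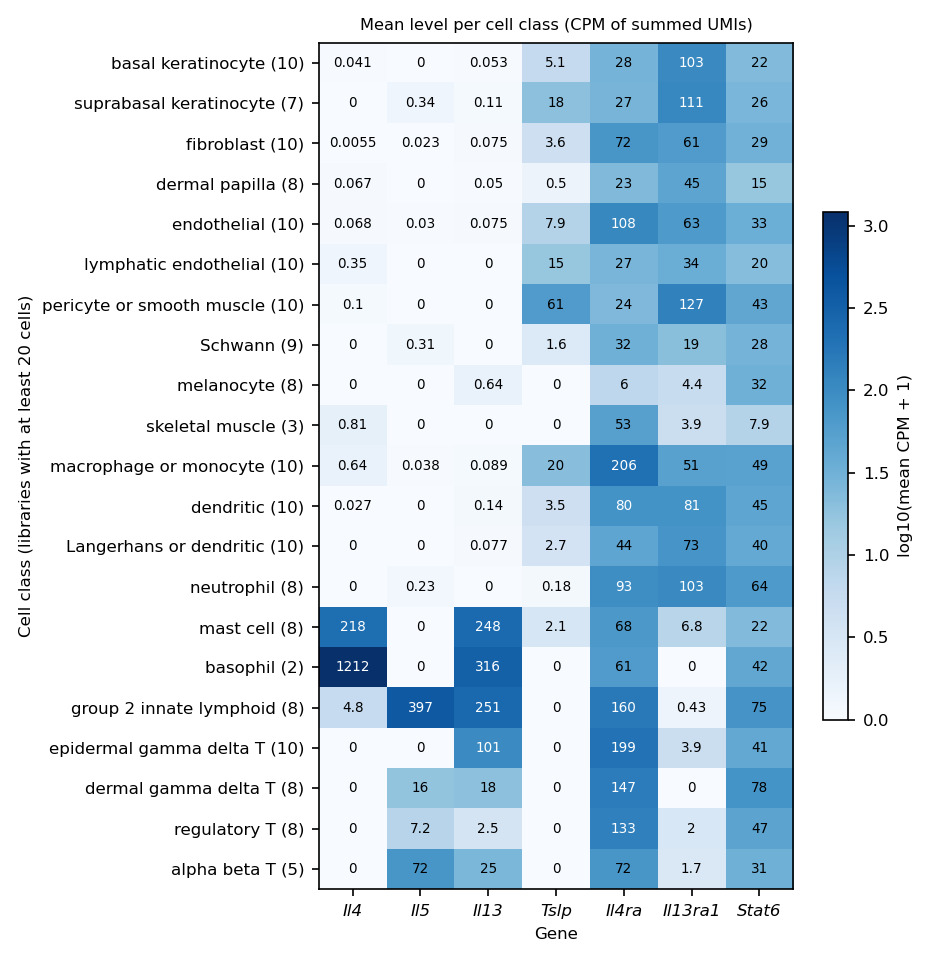
Mean level of each gene (columns) in each cell class (rows; number of libraries with at least 20 cells in brackets), in CPM, coloured by log10(mean CPM + 1). Il4 and Il5 were close to 0 outside a few immune classes, while Il4ra and Stat6 were found in every class shown.

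Il4 came almost wholly from basophils and mast cells. Of its 607 UMIs, 53.1% lay in 106 basophils and 40.4% in mast cells, the granule-bearing tissue cells that release histamine. The mast cell level was 218 ± 204 CPM (SD, n = 8), and the basophil level was 1212 ± 1103 CPM (SD, n = 2, both EXP day 2). No other named class reached 5 CPM, the next being group 2 innate lymphoid cells at 4.77 CPM. In fibroblasts, which should lack the gene, 0 of 13711 cells held an Il4 UMI after each cell was thinned to 2000 UMIs, which allows a share of up to 0.0219%. Such a limit is for cells with a detected UMI at this depth, not for cells that express the gene.

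Il4 UMIs in basophils were found nearly only in the EXP libraries. CTRL basophils held 1 Il4 UMI in 16 cells, and EXP basophils held 321 Il4 UMIs in 90 cells. In library order (day 1 round 1, day 1 round 2, day 2 round 1, day 2 round 2 and day 4, the order used throughout), the CTRL libraries held 0, 0, 0, 0 and 1 Il4 UMIs in 4, 1, 3, 4 and 4 basophils. The EXP libraries held 3, 40, 37, 159 and 82 Il4 UMIs in 7, 19, 26, 21 and 17 basophils. Every EXP library was above every CTRL library in UMIs, but the CTRL libraries had too few basophils for a level, so the level per basophil was not compared between arms. Single cells carried much of the EXP total, with 83 of the 159 UMIs of day 2 round 2 and 71 of the 82 UMIs of day 4 in 1 cell each.

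In mast cells, Il4 was 198, 227, 708, 169 and 74.4 CPM in the CTRL libraries and 97.1, 130 and 142 CPM in the first 3 EXP libraries. The other two EXP libraries held 4 and 16 mast cells. The ranges overlapped, and in the highest library, CTRL day 2 round 1, 35 of 65 UMIs lay in 1 cell. Mast cells were shallow, and 259 of 357 CTRL and 55 of 195 EXP mast cells were left out when cells were thinned to 2000 UMIs, so their thinned shares could not be tested. Without thinning, 19.1% ± 5.58 of mast cells held Il4 in CTRL libraries (SD, n = 5) and 30.3% ± 6.01 in EXP libraries (SD, n = 3; exact permutation p = 0.0714, adjusted 0.119 over 5 pairs). The unthinned shares with Il13 were 20.8% and 21.9% (exact permutation, adjusted p = 0.857). Median depth was 1023 to 1886 UMIs per mast cell in CTRL and 1907 to 3949 in EXP libraries. The mast cell tests had no term for day, and only the CTRL libraries in them include day 4.

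Il5 was the most narrowly held of the 3. Group 2 innate lymphoid cells held 984 of its 1143 UMIs (86.1%), found in 212 of 517 cells. After thinning, 143 of 495 cells held an Il5 UMI, 28.9% (95% Wilson interval 25.1% to 33.0%, counting error only), against 0 of 13711 fibroblasts. Their mean was 397 ± 192 CPM (SD, n = 8), followed by alpha beta T cells at 72.5 ± 80.4 CPM (SD, n = 5), whose SD was larger than the mean. Alpha beta T cells held 53 Il5 UMIs in 7 of 250 cells. In these cells, 17 of the 21 UMIs of CTRL day 1 round 2 lay in 1 cell. All 11 UMIs of CTRL day 4 also lay in 1 cell. Dermal gamma delta T cells, the IL-17-producing T cells of the dermis, held 16.3 CPM and regulatory T cells 7.20 CPM.

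Il5 in group 2 innate lymphoid cells was 582, 700, 434, 530 and 216 CPM in CTRL libraries and 229, 283 and 200 CPM in the EXP libraries of day 1 and day 4. The EXP libraries of day 2 held 19 and 13 of these cells, at 25.5 and 492 CPM. The CTRL library of day 4 lay among the EXP values, so the ranges overlapped. The share of thinned cells with Il5 was 33.8% ± 8.18 (SD, n = 5) in CTRL and 20.7% ± 8.69 (SD, n = 3) in EXP libraries. Only the CTRL libraries of this comparison include day 2. The permutation tests that follow had no term for day, so they cannot separate arm from day. The exact two-sided permutation test gave p = 0.0893 (smallest possible 0.0179; Benjamini-Hochberg adjusted 0.134 over 3 tests). Without thinning the shares were 45.8% and 33.7%, with adjusted p = 0.0446 by the exact permutation test over 5 pairs. EXP cells of this class were deeper, with median UMIs of 5051 to 7307 per library against 3557 to 4862 in CTRL.

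Il13 had the widest set of sources. Epidermal gamma delta T cells, the dendritic T cells that live in mouse epidermis, held 531 of 1934 UMIs (27.5%), in 241 of 1062 cells. Group 2 innate lymphoid cells held 440 (22.8%), basophils 306 (15.8%) and mast cells 280 (14.5%). An unnamed cluster of 101 cycling lymphocytes held 213 (11.0%). Mean levels were 316 ± 67.1 CPM in basophils (SD, n = 2, both EXP day 2) and 251 ± 146 CPM in group 2 innate lymphoid cells (SD, n = 8). The mast cell mean was 248 ± 147 CPM (SD, n = 8). These 3 means do not differ beyond their spread. The basophil spread leaves out the EXP library of day 4, where 17 basophils were at 3991 CPM. The epidermal gamma delta T cells followed at 101 ± 33.1 CPM (SD, n = 10), below all 3 means. The SDs of the innate lymphoid and mast cell means reach that level. Fibroblasts held Il13 in 3 of 13711 thinned cells.

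In epidermal gamma delta T cells, Il13 was 78.7, 60.2, 55.9, 102 and 91.1 CPM in CTRL libraries and 136, 103, 95.1, 164 and 120 CPM in EXP libraries. Il13 was higher in EXP in each of the 5 pairs of day and round, and 1 CTRL library lay above the lowest EXP library. The estimate was 0.54 on the log2 scale (SE 0.204), which did not pass the test (edgeR quasi-likelihood adjusted p = 0.290; unadjusted p = 0.0190), in a class where 0.192% of 5215 genes passed. The thinned share of these cells with Il13 was 10.8% ± 4.41 in CTRL and 13.8% ± 3.11 in EXP libraries (SD, n = 5 each; exact permutation p = 0.230, smallest possible 0.00794). Without thinning it was 17.6% and 28.0% (exact permutation, adjusted p = 0.0397). Median depth moved the same way, with 3004 to 4015 UMIs per cell in CTRL and 4251 to 5382.5 in EXP libraries.

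In group 2 innate lymphoid cells, Il13 was 155, 126, 376, 395 and 453 CPM in CTRL libraries and 131, 74.6 and 299 CPM in the EXP libraries of day 1 and day 4. The day 1 libraries were the lowest of each arm among libraries with at least 20 of these cells. In EXP this order rests on the day 4 library, where 23 of 33 UMIs lay in 1 of 20 cells. Its thinned share with Il13 was 15%, between the 17.9% and 8.81% of the EXP libraries of day 1. The thinned share with Il13 was 32.6% ± 11.9 (SD, n = 5) in CTRL and 13.9% ± 4.63 (SD, n = 3) in EXP libraries. The difference was not past the threshold (exact permutation p = 0.0714, adjusted 0.134). Only the CTRL libraries of this comparison include day 2, at 43.5% and 30.9%. The test had no term for day, so it cannot separate arm from day. In all, 7 pairs of cytokine and class held at least 10% of a cytokine's UMIs, 3 could be tested on thinned shares, and 0 passed, with 0 at an unadjusted p under 0.05. Unthinned, 2 of 5 passed. The 2 basophil pairs could be tested neither way, since no CTRL library held 20 basophils.

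Some Il13 values rested on 1 cell. Basophils held 0, 0, 0, 1 and 0 Il13 UMIs in CTRL and 0, 24, 23, 29 and 229 in EXP libraries, and 148 of the 229 at day 4 lay in 1 cell. Dermal gamma delta T cells held 55 Il13 UMIs in all, 50 of them in 1 cell of the EXP library of day 4. Mast cell Il13 was 141, 255, 490, 440 and 208 CPM in CTRL and 139, 74.1 and 236 CPM in the EXP libraries with at least 20 mast cells, with overlapping ranges.

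The cytokines were often detected in the same cells. Among group 2 innate lymphoid cells, 40.6% of cells with an Il5 UMI also had Il13, against 22.3% of the others, with median depths of 4954 and 4658 UMIs. Among mast cells, Il13 was found in 33.3% of cells with Il4 and 18.1% of the others, with median depths of 2320 and 1571 UMIs. Among basophils these shares were 45.5% and 11.0%, with median depths of 4523 and 1779 UMIs. Within each arm, group 2 innate lymphoid cells with Il5 were also deeper than the others. Their median depths were 4554 and 3676 UMIs in CTRL and 5786 and 5083 UMIs in EXP. The part of depth in any of these shares was not tested.

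**Figure D2:**
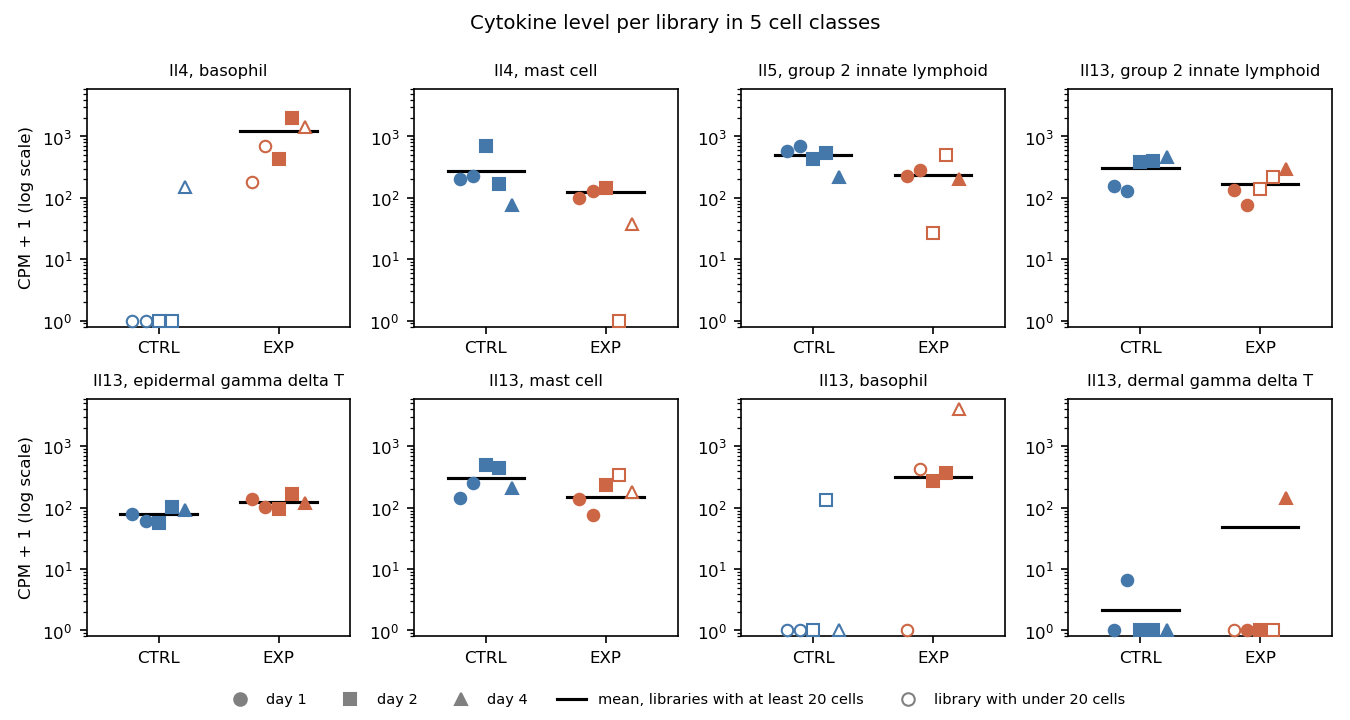
Level of Il4, Il5 and Il13 in each library (y axis, CPM + 1, log scale) for CTRL and EXP, in the classes that hold most of their UMIs and in dermal gamma delta T cells. Each point is 1 library, marker shape gives the day, open points have under 20 cells and bars are means of the filled points. Il13 in epidermal gamma delta T cells runs from 55.9 to 102 CPM in CTRL and 95.1 to 164 CPM in EXP.

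Tslp, on chromosome 18, was found in many cell classes. Of its 2817 UMIs, 27.5% lay in macrophages or monocytes, 18.7% in pericytes or smooth muscle cells of vessel walls, 16.6% in fibroblasts and 10.3% in basal keratinocytes. By level, pericytes or smooth muscle were highest at 61.0 ± 42.4 CPM (SD, n = 10). Macrophages or monocytes (20.02 ± 22.0, n = 10), suprabasal keratinocytes (18.3 ± 11.4, n = 7) and lymphatic endothelial cells (15.3 ± 5.13, n = 10) followed and did not differ beyond their SDs. Basal keratinocytes were at 5.06 CPM and fibroblasts at 3.56 CPM. Epidermal and dermal gamma delta T cells, group 2 innate lymphoid cells, regulatory T cells, alpha beta T cells, basophils, melanocytes and skeletal muscle cells had no Tslp UMI in libraries with at least 20 of them.

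Tslp fell in macrophages or monocytes with expansion. It was 61.6, 24.7, 49.1, 9.86 and 36.4 CPM in CTRL libraries and 9.83, 1.63, 1.56, 2.15 and 3.34 CPM in EXP libraries. The lowest CTRL library, day 2 round 2, was just above the highest EXP library, day 1 round 1, and Tslp was lower in EXP in each of 5 pairs. The means were 36.3 ± 20.2 and 3.70 ± 3.50 CPM (SD, n = 5 each), and the log2 fold change was -3.65 (SE 0.547; edgeR quasi-likelihood adjusted p = 0.00238). In this class 23.2% of 10168 genes passed and 12.9% passed as lower, and Tslp was the only one of the 4 genes tested there to pass. With each cell thinned to 2000 UMIs the fold change was -3.27 (edgeR adjusted p = 0.00497). Median depth per macrophage was 4179.5 to 7964 UMIs in CTRL and 7008.5 to 14800 in EXP libraries. Each library is a pool of mice, so these p-values measure the spread between pools and not between animals.

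The class had 2 clusters, and different ones held most of its cells in each arm. A cluster led by C1qb, C1qc, Ccl8, Cd209f and Folr2 held 75.9% of CTRL and 8.03% of EXP cells of the class. A cluster led by Chil3, Fcgr1 and Ly6c2, a marker of monocytes, held 24.1% and 92.0%. In the first cluster Tslp was 65.4, 27.1, 54.6, 21.3 and 48.4 CPM in CTRL libraries and 17.1, 5.28 and 9.97 CPM in the 3 EXP libraries with at least 20 such cells. The 2 sets did not overlap, and the fold change within this cluster was -2.12 on the log2 scale (SE 0.519; edgeR adjusted p = 0.0355; 6.14% of 8699 genes passed), a test added after the data were seen. The second cluster had 0 to 3.07 CPM in CTRL and 1.12 to 2.73 CPM in EXP libraries, too low to be tested. None of the other three genes tested in it passed, where 3.64% of genes did.

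Markers of other cells in the macrophages moved too. The summed level of all 8 fibroblast markers, each detected, was 321.8 to 3000.5 CPM in CTRL and 32.0 to 374.5 CPM in EXP macrophages. All 7 pericyte markers together were at 3.3 to 11.1 and 1.3 to 6.3 CPM, and all 7 keratinocyte markers at 63.7 to 135 and 120.1 to 452.3 CPM. The macrophages' own 10 markers were at 14068.8 to 20950.8 and 7333.2 to 16714.7 CPM. Fibroblasts themselves held 1.95 to 3.80 CPM of Tslp in CTRL libraries. The part of other cells' RNA in the Tslp result was not tested.

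The other 4 classes tested for Tslp did not pass. Pericytes or smooth muscle held 58.4, 44.1, 18.9, 88.7 and 84.1 CPM in CTRL and 14.2, 161, 45.7, 44.7 and 50.6 CPM in EXP libraries, and 81 of the 92 UMIs behind the value of 161 lay in 1 cell. The estimate was -0.12 (edgeR adjusted p = 0.886) in a class where 19% of genes passed. Fibroblasts held 1.95, 2.19, 2.24, 3.80 and 2.22 CPM in CTRL and 2.50, 2.48, 8.97, 3.76 and 5.47 CPM in EXP libraries (estimate 0.62, edgeR adjusted p = 0.117). Basal keratinocytes held 3.88, 10.0, 6.75, 0.937 and 0.559 CPM in CTRL and 1.78, 6.38, 9.40, 1.82 and 9.03 CPM in EXP libraries. In the EXP day 4 library, 35 of 70 of these UMIs lay in 1 cell. The keratinocyte estimate was 0.49 (SE 0.727; edgeR adjusted p = 0.694; 12.8% of genes passed), and its interval of 2 SE, -0.96 to 1.94, leaves room for a change in either direction. In endothelial cells the estimate was -0.40 (edgeR adjusted p = 0.317; 12.6% of genes passed).

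**Figure D3:**
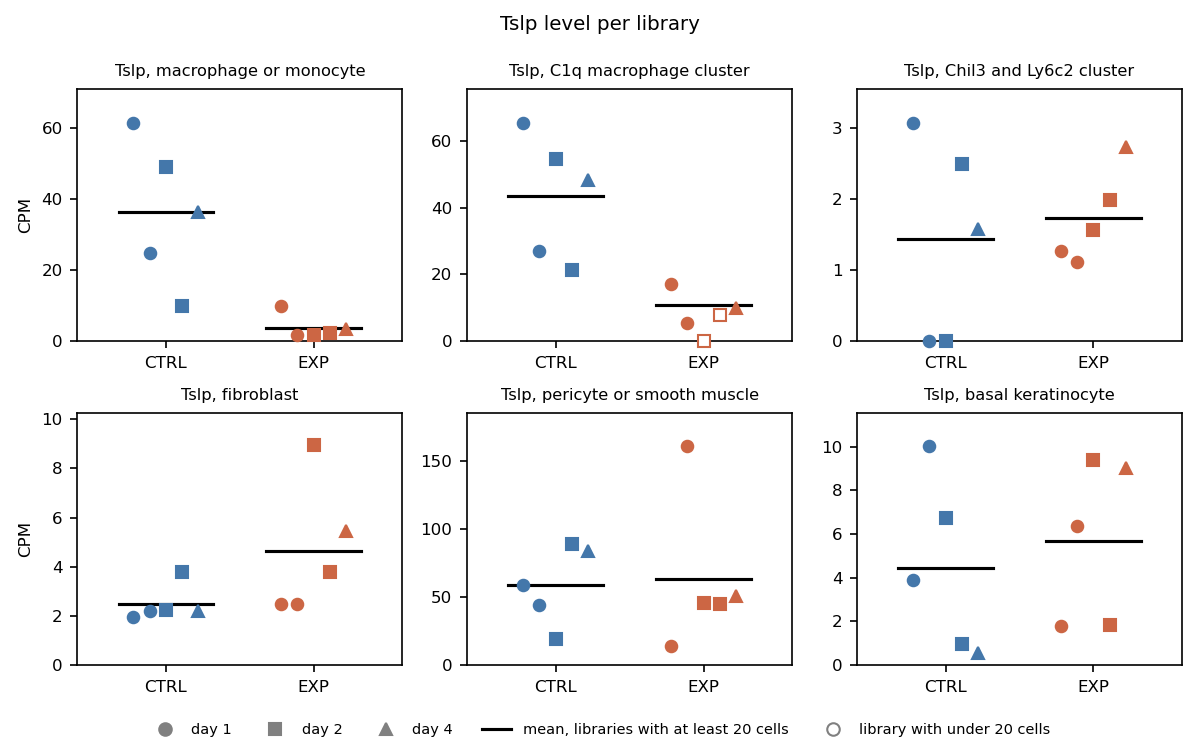
Tslp in each library (y axis, CPM) for CTRL and EXP in 4 classes and in the 2 macrophage clusters. Each point is 1 library, marker shape gives the day, open points have under 20 cells and bars are means of the filled points. In macrophages or monocytes the 5 CTRL libraries, 9.86 to 61.6 CPM, all sit above the 5 EXP libraries, 1.56 to 9.83 CPM.

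Il13ra1, the chain that makes cells responsive to IL-13, was higher in most structural classes and in macrophages, dendritic cells and neutrophils than in lymphocytes, mast cells, basophils, melanocytes and skeletal muscle cells. Its highest means were 127 ± 31.2 CPM in pericytes or smooth muscle (SD, n = 10), 111 ± 25.9 in suprabasal keratinocytes (n = 7), 103 ± 14.0 in basal keratinocytes (n = 10) and 103 ± 49.7 in neutrophils (n = 8), which do not differ beyond their SDs. The neutrophil mean pools arms that did not overlap, 55.6 CPM in CTRL (n = 3, 0 to 91.5) and 131 CPM in EXP (n = 5, 102 to 156), so its place in this order depends on the arms; the CTRL libraries rest on 5, 8 and 0 UMIs and neutrophils could not be tested. Dendritic cells (80.8), Langerhans or dendritic cells (73.3), endothelial cells (63.2), fibroblasts (61.2) and macrophages or monocytes (51.4 CPM) followed. Lymphocyte classes were at 0 to 3.88 CPM, basophils at 0, skeletal muscle cells at 3.90, melanocytes at 4.37 and mast cells at 6.79 CPM. No Il13ra1 UMI was found in 443 thinned dermal gamma delta T cells, which allows a share of up to 0.677%, nor in 495 thinned group 2 innate lymphoid cells, which allows up to 0.606%. Fibroblasts, by number, held 32.2% of all Il13ra1 UMIs and basal keratinocytes 22.9%.

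Il13ra1 rose in fibroblasts and in dermal papilla cells, the signalling fibroblasts at the base of the hair follicle. In fibroblasts it was 39.1, 42.5, 38.1, 58.4 and 45.6 CPM in CTRL and 89.0, 91.1, 70.9, 71.2 and 66.3 CPM in EXP libraries. All 5 EXP libraries lay above all CTRL libraries. The means were 44.7 ± 8.19 and 77.7 ± 11.5 CPM (SD, n = 5 each) and the log2 fold change was 0.59 (SE 0.121; edgeR adjusted p = 0.00413). In fibroblasts 33.4% of 12561 genes passed, 16.3% as higher, and Il13ra1 was 1 of the 4 genes tested that passed. Fold changes are after edgeR's scaling and day adjustment, so they can differ from the ratio of mean CPM.

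In dermal papilla cells Il13ra1 was 22.0, 15.2, 31.8 and 27.0 CPM in CTRL and 56.6, 68.7, 68.1 and 73.7 CPM in EXP libraries, leaving out day 1 round 1, which had 17 and 19 such cells. The groups did not overlap. The means were 24.0 ± 7.11 and 66.8 ± 7.26 CPM (SD, n = 4 each) and the log2 fold change was 1.33 (SE 0.216; edgeR adjusted p = 0.00297), where 3.52% of 7594 genes passed and 2.15% passed as higher. Without the CTRL or the EXP library of day 4 the adjusted p was 0.0575 or 0.0537. With a finer clustering, the estimates were 0.80 in dermal papilla cells (adjusted p = 0.134) and 0.37 in fibroblasts (adjusted p = 0.0534), so both calls ended.

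Fibroblasts comprised 7 clusters, and different ones held most cells in each arm. A cluster led by B830012L14Rik, Mirg, Col1a2 and Rian held 40.8% of CTRL and 8.13% of EXP fibroblasts. A cluster led by Igfbp2, Cadps, Mme, Grem1 and Wnt5a held 13.8% and 29.4%. Within clusters, Il13ra1 rose in 3 of the fibroblast clusters tested. The log2 fold change was 0.92 in the Igfbp2 cluster (edgeR adjusted p = 0.00275; 23.4% of genes passed), 0.96 in a Lrrc15 and Postn cluster (0.00379; 2.99% passed) and 1.74 in an Apod and Saa1 cluster (0.00429; 6.84% passed). It was 0.45 in a Ccl19 and Ltbp2 cluster (adjusted p = 0.0634; 30.8% passed). An unnamed cluster led by Coch, Fmod and Kera held 35.9, 36.0, 24.4, 36.7 and 47.6 CPM in CTRL and 90.6, 137, 83.1, 87.3 and 80.1 CPM in EXP libraries. Its groups did not overlap (log2 fold change 1.38; edgeR adjusted p = 0.000565; 9.76% of genes passed).

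Other-cell markers in these classes moved little for some types and more for others. In fibroblasts, keratinocyte markers summed to 179.7 to 265.3 CPM in CTRL and 174.1 to 386 CPM in EXP, pericyte markers to 178.2 to 269.8 and 184.1 to 324.4, and macrophage markers to 62.1 to 99.2 and 54.8 to 223.5. In dermal papilla cells, keratinocyte markers were at 341.3 to 476.3 and 425.4 to 535.3 CPM, and fibroblast markers at 4565 to 18909.3 and 2280.8 to 5470.3 CPM. Pericyte markers there summed to 136.5 to 216.1 and 191.4 to 349.2 CPM, with 6 of 7 detected in each arm and Vtn at 0. Emcn, an endothelial marker, and Clec9a, a dendritic cell marker, were also at 0. The part of other cells' RNA in the Il13ra1 results was not tested. With cells thinned to 2000 UMIs the fibroblast fold change was 0.72 (edgeR adjusted p = 0.00108).

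Il13ra1 did not pass in the other 7 classes tested. In basal keratinocytes it was 90.6, 93.5, 90.1, 89.3 and 97.0 CPM in CTRL and 115, 132, 114, 106 and 104 CPM in EXP libraries, with no overlap. The estimate was 0.25 on the log2 scale (SE 0.0991; edgeR adjusted p = 0.119). In macrophages or monocytes it was 49.6, 33.5, 45.8, 50.1 and 37.2 CPM in CTRL and 59.0, 48.3, 53.7, 75.7 and 60.8 CPM in EXP libraries, higher in every pair (estimate 0.34; edgeR adjusted p = 0.124). Within the C1q cluster alone the estimate was -0.46 (SE 0.279; edgeR adjusted p = 0.313), the opposite direction. The other five estimates were 0.69 in lymphatic endothelial cells, 0.18 in pericytes or smooth muscle, 0.00 in dendritic cells, -0.16 in endothelial cells and -0.24 in Langerhans or dendritic cells. Over the 9 classes tested the median was 0.25, while the median over all genes was between -0.01 and 0.02 in each class.

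**Figure D4:**
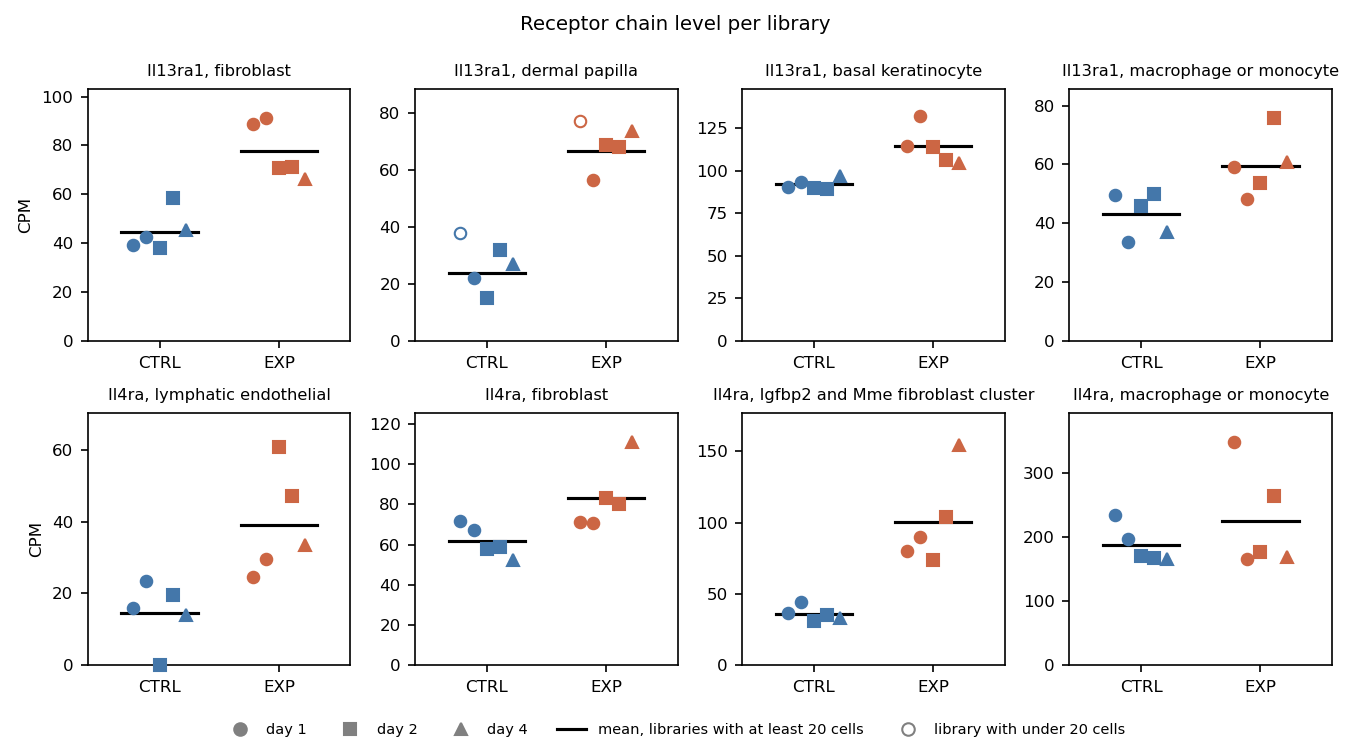
Il13ra1 and Il4ra in each library (y axis, CPM) for CTRL and EXP. Each point is 1 library, marker shape gives the day, open points have under 20 cells and bars are means of the filled points. In fibroblasts Il13ra1 runs from 38.1 to 58.4 CPM in CTRL and from 66.3 to 91.1 CPM in EXP, while Il4ra overlaps between arms.

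Il4ra, the chain common to both receptors, was highest in macrophages or monocytes (206 ± 60.5 CPM, SD, n = 10) and epidermal gamma delta T cells (199 ± 39.6, n = 10). Group 2 innate lymphoid cells (160 ± 50.5, n = 8), dermal gamma delta T cells (147 ± 34.8, n = 8) and regulatory T cells (133 ± 27.6, n = 8) came next. Neighbours in this order did not differ beyond their SDs. Endothelial cells were at 108 ± 20.9 CPM, fibroblasts at 72.4 ± 16.7 and melanocytes lowest at 6.01 ± 2.69. Fibroblasts held 34.6% and macrophages or monocytes 29.5% of all Il4ra UMIs.

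Il4ra rose in lymphatic endothelial cells, the only class of the 12 tested in which it passed. It was 15.9, 23.6, 0, 19.6 and 13.9 CPM in CTRL and 24.5, 29.7, 60.9, 47.2 and 33.4 CPM in EXP libraries. The library at 0 held 28 of these cells and 104761 UMIs, so its 0 allows up to 28.6 CPM. Every EXP library was above every CTRL library as measured. The means were 14.6 ± 8.95 and 39.1 ± 14.8 CPM (SD, n = 5 each) and the log2 fold change was 1.05 (SE 0.315; edgeR adjusted p = 0.0384), where 11.9% of 6473 genes passed and 6.09% as higher. The call was lost in 7 of 10 refits that left out 1 library, with adjusted p up to 0.152, and with DESeq2 (adjusted p = 0.0668). Pericyte markers in this class summed to 18.6 to 38.6 CPM in CTRL and 44 to 86.3 CPM in EXP libraries with Vtn at 0, endothelial markers to 2663.2 to 3994.9 and 3267.4 to 4531.1, and macrophage markers to 143.2 to 216.7 and 110.9 to 201.4. Fibroblast markers summed to 1174.1 to 14612.5 CPM in CTRL and 97.8 to 10484.5 CPM in EXP libraries. Keratinocyte markers summed to 472.4 to 676.1 and 414.3 to 780.3 CPM. The part of other cells' RNA in the Il4ra result was not tested. Split by hashtag, only 3 mice per arm had at least 20 of these cells, with 20.5 to 28.9 CPM in CTRL and 15.6 to 29.7 CPM in EXP mice, so no rise was seen there. These mice do not include day 1 round 1, and they were too few to be tested.

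In fibroblasts Il4ra was 71.8, 67.3, 57.9, 58.8 and 52.1 CPM in CTRL and 71.2, 70.9, 83.0, 80.1 and 111 CPM in EXP libraries. The ranges overlapped at day 1 and the estimate over days did not pass (0.22; edgeR adjusted p = 0.321). In the Igfbp2 fibroblast cluster alone it was 36.5, 43.8, 31.1, 35.2 and 32.9 CPM in CTRL and 79.8, 90.0, 73.7, 104 and 155 CPM in EXP libraries. These did not overlap, and Il4ra rose in that cluster by 1.32 on the log2 scale (SE 0.179; edgeR adjusted p = 0.000239). Il4ra also rose, by 2.17, in an unnamed cluster of cycling keratinocytes led by Krt25, Krt27 and Krt28 (edgeR adjusted p = 0.0214; 1.8% of genes passed). Over all clusters 9 of 58 tests passed (15.5%, against 10.3% of all genes in the same clusters, weighted by the tests in each) and 19 had an unadjusted p under 0.05, and 2 of the 9 were the dermal papilla and lymphatic endothelial classes again.

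Il4ra did not pass in macrophages or monocytes, where it was 234, 198, 171, 168 and 166 CPM in CTRL and 350, 165, 177, 264 and 169 CPM in EXP libraries (estimate 0.13; edgeR adjusted p = 0.665). The 2 clusters of this class, whose shares differed between arms, had larger estimates that did not pass either. Within the C1q cluster Il4ra was 173 to 245 CPM in 5 CTRL and 193 to 475 CPM in 3 EXP libraries, higher in each of 3 pairs (estimate 0.57, SE 0.237; edgeR adjusted p = 0.150, unadjusted 0.0318). Within the Chil3 and Ly6c2 cluster it was 67.5 to 153 CPM in CTRL and 122 to 255 CPM in EXP libraries, higher in each of 5 pairs (estimate 0.68, SE 0.228; edgeR adjusted p = 0.127, unadjusted 0.0103). In Langerhans or dendritic cells it was 43.3, 24.5, 21.1, 28.2 and 31.5 CPM in CTRL and 35.4, 57.5, 59.2, 84.1 and 57.4 CPM in EXP libraries. Only the EXP library of day 1 round 1 lay within the CTRL range. The estimate was 0.73 (SE 0.259; edgeR adjusted p = 0.119; 4.13% of genes passed), and without that library it was 0.87 (adjusted p = 0.0351). In epidermal gamma delta T cells the estimate was -0.32 (edgeR adjusted p = 0.479). Over the 12 classes tested, 8 estimates were above 0 and the median was 0.06.

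The receptor partners divided lymphocytes from fibroblasts, while some other classes held both. Il2rg, the common gamma chain, was at 479 CPM in epidermal gamma delta T cells and 0.861 CPM in fibroblasts. After thinning, Il4ra and Il2rg were detected together in 17.6% of epidermal gamma delta T cells, 14.7% of dermal gamma delta T cells, 12.4% of regulatory T cells and 11.7% of group 2 innate lymphoid cells, and in 0.00729% of fibroblasts. Il4ra and Il13ra1 were detected together in 2.44% of neutrophils, 2.31% of macrophages or monocytes, 2.16% of endothelial cells, 1.70% of dendritic cells and 1.20% of fibroblasts. All these shares are limited by the depth of 2000 UMIs per cell. Several of these classes held both pairs. Il4ra and Il2rg were detected together in 3.30% of macrophages or monocytes, 1.69% of neutrophils, 1.66% of dendritic cells and 1.48% of endothelial cells. The TSLP receptor chain Crlf2 was at 122 CPM in basophils, 103 in regulatory T cells, 90.8 in neutrophils and 78.3 in dendritic cells. Its partner Il7r was at 1426 CPM in group 2 innate lymphoid cells, 526 in dendritic cells, 474 in basophils and 2.45 in neutrophils.

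Stat6 was found in every class. It was highest in dermal gamma delta T cells (78.1 ± 25.1 CPM, SD, n = 8) and group 2 innate lymphoid cells (74.8 CPM), and lowest in skeletal muscle cells (7.93 CPM). In macrophages or monocytes it was 42.8 to 54.2 CPM in CTRL and 42.8 to 56.7 CPM in EXP libraries. In fibroblasts it was 31.3, 32.2, 24.3, 26.3 and 23.2 CPM in CTRL and 49.6, 37.9, 23.4, 23.3 and 21.9 CPM in EXP libraries, with the 2 day 1 EXP libraries highest. By edgeR's quasi-likelihood test Stat6 passed in 0 of 13 classes, where 0.167% to 33.4% of all genes passed, with adjusted p from 0.148 to 0.993. The only unadjusted p under 0.05 was in endothelial cells (estimate -0.35; edgeR adjusted p = 0.148). DESeq2 also called 0. The 13 estimates ran from -0.35 to 0.50 on the log2 scale with a median of -0.02. In macrophages the interval of 2 SE was -0.22 to 0.23, and in fibroblasts -0.31 to 0.18.

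In all, 40 pairs of gene and class could be tested, 4 passed (10%) and 11 had an unadjusted p under 0.05. Over all genes of the same classes, weighted by the tests in each, 13% passed, so the share of calls among the 7 genes was not above the background. Il4 and Il5 were too sparse in all 13 fitted classes. Counts of the same size were simulated with no day effect, changing genes picked at random among those tested, so the rates are not specific to the 7 genes. In them, 67.7% of 2-fold and 100% of 4-fold changes were recovered in fibroblasts, and 50.5% and 97% in macrophages or monocytes. The rates were 60.6% and 99% in dermal papilla cells and 71.4% and 100% in lymphatic endothelial cells. False calls were 4.57%, 5.77%, 5.36% and 7.1% of all calls in these classes, in that order.

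**Figure D5:**
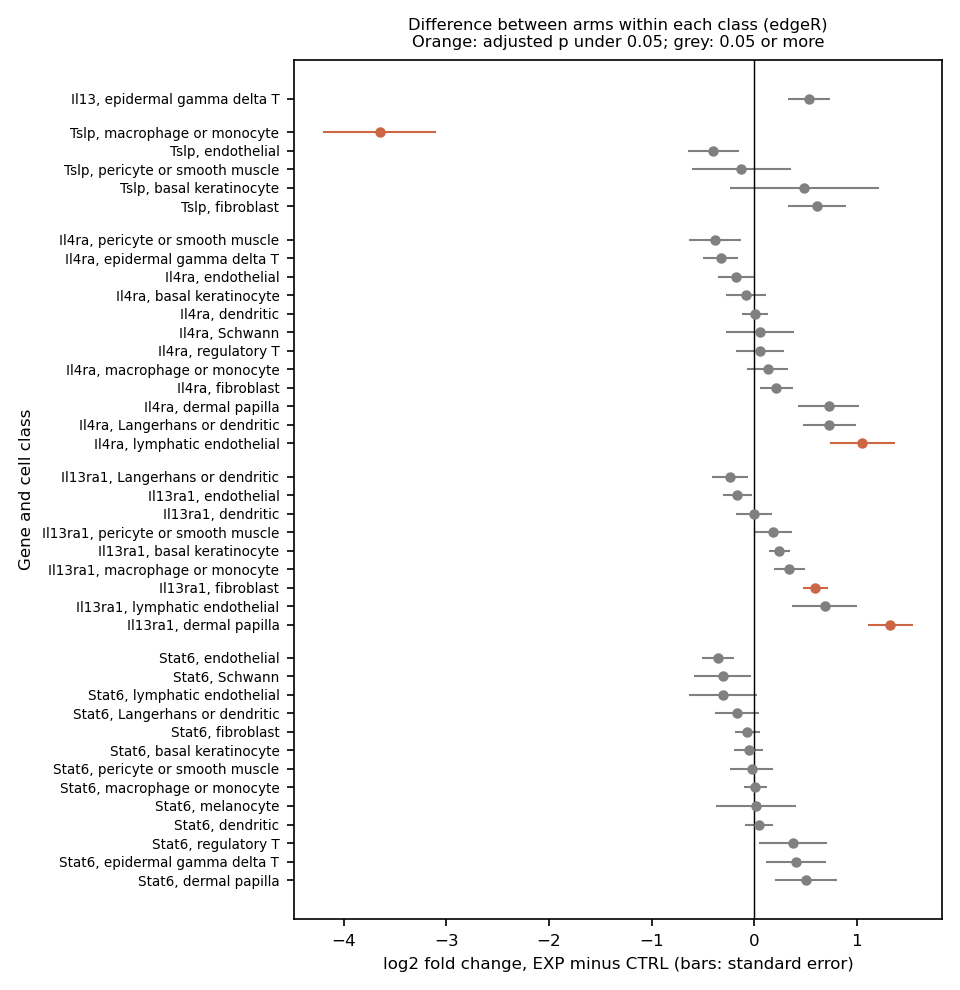
Log2 fold change of EXP against CTRL for each gene and class tested (points; bars are standard errors), coloured where the edgeR adjusted p is under 0.05. The 4 coloured points are Tslp in macrophages or monocytes (-3.65), Il13ra1 in fibroblasts (0.59) and dermal papilla cells (1.33), and Il4ra in lymphatic endothelial cells (1.05).

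Summed over all cells of a library, Il13ra1 was 47.1, 51.7, 40.2, 54.5 and 51.5 CPM in CTRL and 92.9, 94.7, 66.9, 72.6 and 71.9 CPM in EXP libraries. The groups did not overlap, and Il13ra1 rose by 0.51 on the log2 scale (SE 0.0958; edgeR adjusted p = 0.00625), where 26.3% of 16503 genes passed. A whole-library level moves with the share of each cell class as well as with the level per cell. Tslp was 8.64, 5.74, 8.74, 6.11 and 7.60 CPM in CTRL and 3.01, 6.35, 5.06, 5.54 and 7.06 CPM in EXP libraries (estimate -0.66; edgeR adjusted p = 0.0915), with overlap. At day 4 the whole-library levels were 7.60 and 7.06 CPM, while macrophages or monocytes held 36.4 and 3.34 CPM. Il13 (0.79), Il4 (1.00), Il5 (-0.64), Il4ra (0.10) and Stat6 (0.06) had adjusted p from 0.207 to 0.765 in the whole libraries.

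Hashtags, taken here as 1 mouse each, split the libraries of 4 day-and-round pairs into 14 mice per arm. Mice of an arm and round shared a reaction, so they are not independent of it. Tslp in macrophages or monocytes had a median of 24.3 CPM (0 to 83.4) over 14 CTRL mice and 2.22 CPM (1.03 to 12.7) over 12 EXP mice. The ranges overlapped, 1 CTRL mouse being at 0, and Tslp fell by 3.99 on the log2 scale (edgeR adjusted p = 2.77e-09; 46.1% of genes passed). Il13ra1 rose in fibroblasts by 0.58 (14 and 10 mice; edgeR adjusted p = 0.000611; 47.8% passed), in basal keratinocytes by 0.37 (10 and 10 mice; 0.0339; 28.3% passed) and in macrophages or monocytes by 0.36 (0.0226). Il4ra rose in fibroblasts by 0.57 (edgeR adjusted p = 0.00551), from a median of 55.8 to 93.0 CPM. These 5 were the tests that passed of 15, and none passed in dendritic cells, where 37.8% of genes did, or in epidermal gamma delta T cells, where 0.86% did. The libraries of day 1 round 1, which had no hashtags, were not part of them.

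Differences between arms were also compared between days. None of 40 tests passed, and 4 had an unadjusted p under 0.05. In fibroblasts the Il4ra estimate was -0.26 at day 1, 0.37 at day 2 and 0.87 at day 4 (edgeR interaction adjusted p = 1.0). In basal keratinocytes the Il4ra estimates were -0.62, 0.58 and 0.18 (edgeR interaction adjusted p = 0.740) and the Tslp estimates -0.85, 1.84 and 3.92 (edgeR adjusted p = 0.906). In endothelial cells the Il4ra estimates were -0.71, 0.12 and 0.37 (edgeR interaction adjusted p = 1). Day 4 had 1 library per arm, and few genes of any kind passed this test, 0.0527% in dermal papilla cells, 0.0107% in endothelial cells, 0.104% in melanocytes and 0% in the other classes.

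Genes known to rise with IL-4 or IL-13 did not move as 1 group. Of 77 tests of 17 such genes over 13 classes, 4 were higher and 19 lower in EXP. Over all genes of the same classes, weighted by the list's tests in each (as for the lists below), 7.49% were higher and 8.72% lower. Either way, 29.9% of the list and 16.2% of all genes were called, and most calls of the list were lower. In macrophages or monocytes 14 were tested with a median of -1.23, against 0.01 over all genes. Arg1, the arginase of repair macrophages, was at 0.838 ± 0.969 CPM in CTRL and 112 ± 122 CPM in EXP libraries (SD, n = 5 each; log2 fold change 6.29, edgeR adjusted p = 0.00112). Chil3 rose by 3.17 (edgeR adjusted p = 0.0277) and Tgm2 also rose. Retnla, the secreted resistin-like protein, fell from 327 ± 202 to 1.44 ± 1.01 CPM (log2 fold change -8.07, edgeR adjusted p = 0.00112). Mgl2, a lectin of dermal macrophages and dendritic cells, fell from 451 ± 138 to 45.6 ± 41.1 CPM, and Ccl24, Clec10a, Postn and Pparg were also lower. Chil3 leads the macrophage cluster that held 92.0% of EXP cells, and Ccl24 leads the other. In dendritic cells 0 of 11 were higher and 4 lower, with Retnla at 364 ± 333 and 0.552 ± 1.24 CPM (log2 fold change -9.52, edgeR adjusted p = 0.000402; 18.7% of genes passed). The chemokine Ccl8 was lower in basal keratinocytes, endothelial cells, pericytes and lymphatic endothelial cells (-2.66 in the last, edgeR adjusted p = 0.000617). Postn, a matrix protein, rose in dermal papilla cells by 1.15 (edgeR adjusted p = 0.00603).

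Of the alarm cytokines that act beside TSLP and their receptors, 4 of 35 tests were higher and 4 lower, against 6.46% and 7.44% of all genes. Fibroblasts held Il33 at 10.1 ± 9.17 CPM in CTRL and 102 ± 54.4 CPM in EXP libraries (SD, n = 5 each; log2 fold change 3.57, edgeR adjusted p = 0.0013). Its receptor gene Il1rl1 rose in the same cells from 8.18 ± 3.69 to 84.6 ± 32.2 CPM (log2 fold change 3.15, edgeR adjusted p = 0.000333), while Il18 fell by 1.38. Il1rl1 fell in macrophages or monocytes by 3.24 and in dendritic cells by 1.17. Il17ra, a receptor chain used by IL-17 and IL-25, rose in dermal papilla cells by 1.05 and Il1rap fell in endothelial cells by 1.22. Il33 is among the leading genes of the Apod and Saa1 fibroblast cluster, which held 2.24% of CTRL and 10.6% of EXP fibroblasts.

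Of the receptor chains and kinases, 5 of 68 tests were higher and 8 lower, against 6.16% and 7.22% of all genes. The higher share was near the background, and the lower calls outnumbered the higher ones. Either way, 19.1% of the list and 13.4% of all genes were called. The genes of this list named next are among the higher calls. Crlf2 rose in fibroblasts, macrophages or monocytes and endothelial cells, by 0.54 in the last (36.2 ± 4.71 and 58.4 ± 6.85 CPM, SD, n = 5 each; edgeR adjusted p = 0.0217). Jak3 rose in fibroblasts by 1.75 at low levels (0.582 and 2.20 CPM). Of the transcription factors and feedback regulators, 2 of 98 tests were higher and 16 lower, against 5.24% and 6.09% of all genes. Socs2 rose in macrophages or monocytes by 1.05 and Ptpn6 in dendritic cells by 0.74. Rora, a factor of innate lymphoid cells, fell in dendritic cells by 1.70 and in lymphatic endothelial cells by 0.86. Irf4 fell in fibroblasts by 2.88, and Cish, which is induced by cytokines and limits STAT signalling, fell in lymphatic endothelial cells by 0.67 and in pericytes by 1.04. Of other cytokines and receptors of type 2 cells, 0 of 16 tests were higher and 4 lower, against 6.78% and 7.56% of all genes. These were Il31ra in fibroblasts (-2.30) and Osmr, the oncostatin M receptor, in basal keratinocytes (-0.70), pericytes (-0.95) and endothelial cells. Of receptors of cells drawn to type 2 sites, 0 of 7 tests were higher and 2 lower, against 5.2% and 6.56% of all genes. The 2 were Cysltr1 in endothelial cells (-1.69) and Ccr3 in macrophages or monocytes.

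Across the 21 classes with a level, the genes most like Il4, Il5, Il13, Tslp, Il4ra and Il13ra1 were found by Pearson's r of log2(mean CPM + 1) over 12987 genes, as a description. The classes share libraries and depth. Il4 was most like Gm10384 (r = 0.973), A230098N10Rik (0.972) and Cd200r3 (0.970), a receptor of basophils and mast cells. Il5 was most like the chemokine receptor Ccr8 (0.959), Gm14718 (0.956) and the IL-9 receptor gene Il9r (0.917). Il13 was most like Tespa1 (0.931), Sytl3 (0.925) and Gm19585 (0.911). Likeness was weaker for the last 3, with Rgcc (0.849) for Il4ra, Cbr3 (0.846) for Il13ra1 and Kif1c (0.836) for Tslp as the nearest.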

How the data were processed

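The authors made counts of UMIs per gene and cell barcode, which were deposited without normalization, with Cell Ranger 6.1.2 on mm10 per the submitters' processing notes. The chemistry was 10x 3′, per the labels' protocols. Antibody hashtag counts lay in the same deposited matrices. Of 55174 barcodes, those below 200 genes or 500 UMIs or above 10% mitochondrial UMIs were dropped, and cells marked by Scrublet or carrying more than 1 hashtag (2.17% to 5.89% of a library) were removed. Cells were clustered without the 7 genes (scanpy 1.11.5, 2000 variable genes, 30 components, 15 neighbours, Leiden resolution 1) and clusters were named from marker lists. Hashtags were assigned with HTODemux in Seurat 5.3.0 at quantile 0.99, which gave a mouse to 12433 CTRL and 8673 EXP cells.

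Counts were summed per class and library with at least 20 cells and tested with edgeR 4.0.16 in R 4.3.3 (filterByExpr, TMM, quasi-likelihood, day and arm as terms, at least 4 libraries per arm), with Benjamini-Hochberg adjustment over all genes of a class and a threshold of 0.05. The per mouse test needed 6 mice per arm. Shares of cells with a cytokine UMI were tested by exact permutation of libraries between arms after thinning each cell to 2000 UMIs, leaving out shallower cells. This permutation test had no term for day and did not use the pairing of libraries. Wilson intervals were computed with scipy 1.17.1. DESeq2 1.42.0, no filter on low counts, a block for day and round, at least 50 cells, thinned counts, resolution 2, mice as units and leaving out each library were alternatives. Libraries of the 2 arms with the same day and round share a sequencing round per the labels, and their deviations from the arm means correlated over 16503 genes (r = 0.51 at day 1 and 0.292 at day 2), so day and round pair the libraries. Scripts were tested on simulated data. Intervals and limits from counts (3 counts for a 0) cover counting error only.

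The 7 genes, the marker lists and the pathway lists were chosen with earlier results of these data known. Pathway genes are named where they were among the 3 largest changes in each direction of a class, passed the test and had 1 direction in every pair. Others named in counts were named because the counts were small.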

Additional observations from a re-analysis of the deposited data

Results flagged for a closer look

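In 7 of 98 groups of 5 or 4 libraries examined, 1 library stood apart from the others of its arm by Dixon's criterion at 95%, which chance alone gives in about 1 of 20 groups. In epidermal gamma delta T cells Il4ra was lowest in EXP day 1 round 1 (152 CPM, others 185 to 196). In dendritic cells Il13ra1 was highest in the same library (148 CPM, others 68.8 to 75.2). Tslp in macrophages or monocytes was also highest there among EXP libraries (9.83 CPM, others 1.56 to 3.34). Tslp in fibroblasts was highest of the CTRL libraries in day 2 round 2 (3.80 CPM, others 1.95 to 2.24). Tslp in pericytes or smooth muscle was highest of the EXP libraries in day 1 round 2 (161 CPM, others 14.2 to 50.6), where 81 of 92 UMIs lay in 1 cell. Over whole libraries, Il4 was highest of the CTRL libraries in day 2 round 1 (4.07 CPM, others 0.226 to 0.840) and highest of the EXP libraries in day 2 round 2 (8.23 CPM, others 0.80 to 2.37). The second of these libraries holds the basophil with 83 Il4 UMIs.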

How the results depend on the processing

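Of 4 calls within classes, leaving out 1 library at a time kept 2 to 4, and Tslp in macrophages or monocytes (-4.05 to -3.08) and Il13ra1 in fibroblasts passed in all 10 such refits. Thinned counts gave 2 calls of 21 tests (Tslp in macrophages or monocytes and Il13ra1 in fibroblasts), and resolution 2 gave 2 of 33 (Tslp in macrophages or monocytes and Il4ra in lymphatic endothelial cells). DESeq2 gave 4 of 72, without Il4ra in lymphatic endothelial cells and with Il4 in macrophages or monocytes, which held 0 to 3.09 CPM. Without a filter there were 6, adding that pair and Tslp in Langerhans or dendritic cells (-2.89). In whole libraries, DESeq2 and thinned counts each called 2 genes in place of 1, adding Tslp (-0.68 and -1.25), and leaving out a library gave 1 to 1. Per mouse, thinning left 1 of 5 calls, Il13ra1 in fibroblasts, with 7 tests possible. Tslp in macrophages or monocytes was not among those 7, so its call could not be checked this way. Between days, no filter gave 1 call in place of 0, Tslp in basal keratinocytes, and leaving out a library gave 0. Unthinned cytokine shares gave 2 calls in place of 0, and leaving out a library gave 0. With the replicate block of day and round, the number of calls was 4 within classes, 1 in whole libraries and 0 for cytokine shares, and no call changed. An estimate within 1 SE of 0 was given no direction. By that rule 3 estimates turned: Il13ra1 in Langerhans or dendritic cells after thinning (0.56, adjusted p = 0.252), Il13ra1 in the C1q macrophage cluster alone (-0.46) and Il4ra in dermal papilla cells at resolution 2 (-0.34, adjusted p = 0.661). The cause was not tested. Of the other alternatives for single genes, 763 kept direction and side of the threshold, 17 lost a call and 9 gained one. Of 7 pairs of cytokine and source class, 3 could be tested on thinned shares and 5 without thinning.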
